A study of Mus musculus with 10 samples.

Results

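The genes described here encode the steps of glycolysis and the cell's response to low oxygen. They were taken by name as a list of 36 mouse symbols, and all 36 were found among the 26401 genes of the count table. The list holds 2 glucose transporters, 17 genes of glycolysis and its regulation, 6 genes of oxygen sensing and 11 genes that are induced in hypoxia. After the filter on low counts, 35 of the 36 were tested together with 12964 genes in all. The member left out of the test was the glucose transporter gene Slc2a3, which had 2 to 15 counts per library.

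Polyadenylated RNA was read from 10 immortalized populations of mouse embryonic fibroblasts, connective tissue cells that are grown from embryos. All 10 carry the mitochondrial DNA mutation m.5024C>T, so mutant and normal mitochondrial genomes stand side by side in them, a state called heteroplasmy. The labels also name C57Bl/6N for all of them, and all were grown untreated in high glucose DMEM with 10% FBS and 50 µg/ml uridine. The share of mutant genomes was high in 5 populations and low in 5 others, and the comparison asks how expression differs with that share. Both groups carry the mutation, so there is no group without it. Each population has a clone number of its own, but the labels give neither how a clone was made nor its exact mutant share.

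Glycolysis turns glucose into pyruvate in the cytosol and yields ATP without the respiratory chain, so cells with impaired respiration are known to depend on it. When oxygen is plentiful, prolyl hydroxylases (the Egln genes) mark the alpha subunits of hypoxia-inducible factors (Hif1a and Epas1) for destruction by the von Hippel-Lindau ubiquitin ligase (Vhl). When oxygen falls, or when the hydroxylases are blocked, these factors build up and bind a short DNA element near their target genes. Their targets include glucose transporters, most glycolytic enzymes, growth factors such as Vegfa, and some of the hydroxylases themselves.

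Library totals ran from 17318372 to 28208576 counts. Levels are given as CPM, the usual count scaled to library size, here after TMM normalization. Of 11 fibroblast markers, 7 were at 1 CPM or more in all 10 libraries. The summed level of all 11, led by Col1a1 and Vim, was 9417 to 19640 CPM in the high and 11560 to 13430 CPM in the low libraries. Lum was below 1 CPM in all libraries and Thy1, Dcn and Pdgfra in some. Among the 7, Col1a2 ran from 1.98 CPM in high 2 to 886.3 CPM in low 1. The summed level of 4 endothelial markers was at most 1.42 CPM in the high and 1.72 CPM in the low libraries, and that of 3 muscle markers was at most 0.0795 and 0.057 CPM. Cdh5, Ptprc, Sox10 and Myog, which define endothelium, blood cells, glia and muscle, had 0 counts in all libraries. The sum of 5 neural markers, of which Tubb3 alone was at 1 CPM or more throughout, was 4.63 to 11.6 CPM in the high and 13.6 to 33.7 CPM in the low libraries. The sum of 7 epithelial markers, led by Krt19, was 121.5 to 511.9 CPM in the high and 453.7 to 673.2 CPM in the low libraries. Krt18 among them was at 2.27 to 294.0 CPM in the high and at 0.327 to 0.598 CPM in the low libraries. The sum of 5 blood markers, led by Cd68, was 11.8 to 90.2 and 12.7 to 26.2 CPM. The part of these markers in the results was not tested. The ribosomal RNA-like transcript Gm42418 reached 40940 CPM in low 2 and 8017 CPM in low 3, against 744.7 to 1616 CPM in the other 8 libraries.

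The upstream sequences of 5 members are shown first, because the results turn on these genes: Gpi1, Egln1 and Ankrd37 passed the test, and Egln3 and Adm had the largest negative differences of those that did not. Each is the 250 bases before the RefSeq transcription start in GRCm38.p6, written 5′ to 3′ on the gene's own strand. Capitals mark the core of the hypoxia response element, ACGTG or GCGTG on either strand (read as CACGT or CACGC on the other strand). The stretches are chr8:45999851-46000100, minus strand, for Ankrd37; chr8:124949255-124949504, minus strand, for Egln1; chr7:34230337-34230586, minus strand, for Gpi1; chr12:54203875-54204124, minus strand, for Egln3; and chr7:110627407-110627656, plus strand, for Adm.
Ankrd37: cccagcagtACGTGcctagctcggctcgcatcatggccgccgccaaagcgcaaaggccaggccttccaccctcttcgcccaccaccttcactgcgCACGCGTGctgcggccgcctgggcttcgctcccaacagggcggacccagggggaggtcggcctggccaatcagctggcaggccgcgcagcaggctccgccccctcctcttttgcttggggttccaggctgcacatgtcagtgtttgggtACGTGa
Egln1: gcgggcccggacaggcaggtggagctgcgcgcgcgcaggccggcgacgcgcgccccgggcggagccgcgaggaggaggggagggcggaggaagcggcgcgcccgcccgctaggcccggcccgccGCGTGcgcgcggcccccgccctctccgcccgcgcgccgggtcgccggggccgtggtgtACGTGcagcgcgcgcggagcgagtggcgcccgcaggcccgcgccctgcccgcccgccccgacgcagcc
Gpi1: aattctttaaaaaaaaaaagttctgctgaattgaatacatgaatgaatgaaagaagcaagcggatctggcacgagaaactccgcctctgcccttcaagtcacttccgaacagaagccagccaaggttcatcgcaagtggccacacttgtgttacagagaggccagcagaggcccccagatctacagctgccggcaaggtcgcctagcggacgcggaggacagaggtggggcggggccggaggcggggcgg
Egln3: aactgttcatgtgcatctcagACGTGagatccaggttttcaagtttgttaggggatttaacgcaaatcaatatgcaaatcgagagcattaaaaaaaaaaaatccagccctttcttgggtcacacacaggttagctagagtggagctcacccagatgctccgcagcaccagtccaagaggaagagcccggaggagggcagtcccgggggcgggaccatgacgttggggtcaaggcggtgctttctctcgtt
Adm: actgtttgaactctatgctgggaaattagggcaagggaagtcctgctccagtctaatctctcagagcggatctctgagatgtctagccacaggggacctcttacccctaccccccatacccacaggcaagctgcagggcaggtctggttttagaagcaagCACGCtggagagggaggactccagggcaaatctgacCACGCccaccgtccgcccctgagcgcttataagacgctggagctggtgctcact
In the Ankrd37 stretch there were 4 matches, with ACGTG 241 and 6 bases before the start and a GCGTG on each strand 152 and 155 bases before it, which overlap each other. Egln1 had a GCGTG 126 and an ACGTG 68 bases before the start. Egln3 had 1 match, an ACGTG 229 bases before the start, and Adm had 2, both GCGTG on the other strand, at 90 and 54 bases. These letters were not in the 250 bases before Gpi1.

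Over all members, 49 promoter windows of 32 genes were available, each from 250 bases before to 50 bases after a start. Slc2a3, Epas1, Ndrg1 and Bhlhe40 had none. Windows of the same gene can overlap, as for Aldoa, Eno1 and Pfkm, so the same letters can count more than once. ACGTG on either strand was in 26 of the 49 windows (53.1%), and in 19.6% of all 32851 mouse windows of the same length. GCGTG was in 25 of the 49 (51.0%) and in 32.4% of all windows. At least 55% of the bases were G or C in 39 of the 49 member windows and in 14253 of all windows. Among these, ACGTG was in 58.97% of the members' and 25.4% of all, and GCGTG in 53.8% and 53.1%. The longer CACGTG, which holds ACGTG on both strands and is also the E-box letter sequence, was in 4 member windows (8.16%) and in 7.15% of all. Many of the members were put on the list as known targets of these factors, and a match is a description of letters, not a binding site.

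Of the 35 tested members, 3 fell in the high heteroplasmy libraries and none rose. The 3 were Gpi1, the enzyme of the second step of glycolysis, Egln1, the main oxygen-sensing prolyl hydroxylase, and Ankrd37, a small ankyrin repeat gene that is strongly induced in hypoxia. In bulk RNA, fewer cells with a transcript and less of it per cell cannot be told apart. The 3 falls make 8.57% of the tested members, and 2.87% of all genes fell, by edgeR's quasi-likelihood test with a Benjamini-Hochberg adjusted p under 0.05. The count of 0 rises stands beside 1.99% of all genes that rose, so that 4.86% changed in either direction. Without adjustment, 1 member was higher and 10 were lower at p under 0.05, beside 10.6% and 11.0% of all genes. With limma-voom 0 members were higher and 3 lower (1.8% and 3.49% of all genes), and with DESeq2 1 was higher and 6 lower (5.28% and 6.09%). Negative log2 fold changes were found in 25 of the 35 (71.4%, against 47.7% of all genes), with a median of -0.22 beside 0.02 for all genes. For 3 members, the same 3, all 5 high values lay below all 5 low values, as they did for 4.17% of all genes, and 7.17% had no overlap in either direction.

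Position in the genome moved with these falls. Genes of chromosome 8 were lower as a block in the high libraries, with a difference of -0.57 on the log2 scale between the mean shifts of the groups, and 27.6% of its tested genes fell. Egln1 and Ankrd37 are the 2 members on chromosome 8. Outside it, 1 of 33 tested members fell (3.03%), beside 1.46% of all genes there. With each library's median shift per chromosome taken out, 0 members were called in either direction, beside 0.609% of all genes lower and 0.656% higher. The members' median log2 fold change was -0.33 in that fit, against -0.22 in the main fit, and 0.01 over all genes. No member was called lower without high 3 either, and none without low 2 and low 3, the pair rich in Gm42418, where 0.311% of all genes fell and 0.104% rose. The count was 1 without high 2, high 5, low 1 or low 3. Calls over all genes in either direction also fell, from 630 in the main fit to 232 without high 3. They were 359, 431, 236 and 254 without high 2, high 5, low 1 and low 3. The 6 that DESeq2 called lower were Egln3, Adm and Bhlhe40 beside the 3, and the one called higher was Aldoc.

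**Figure D1:**
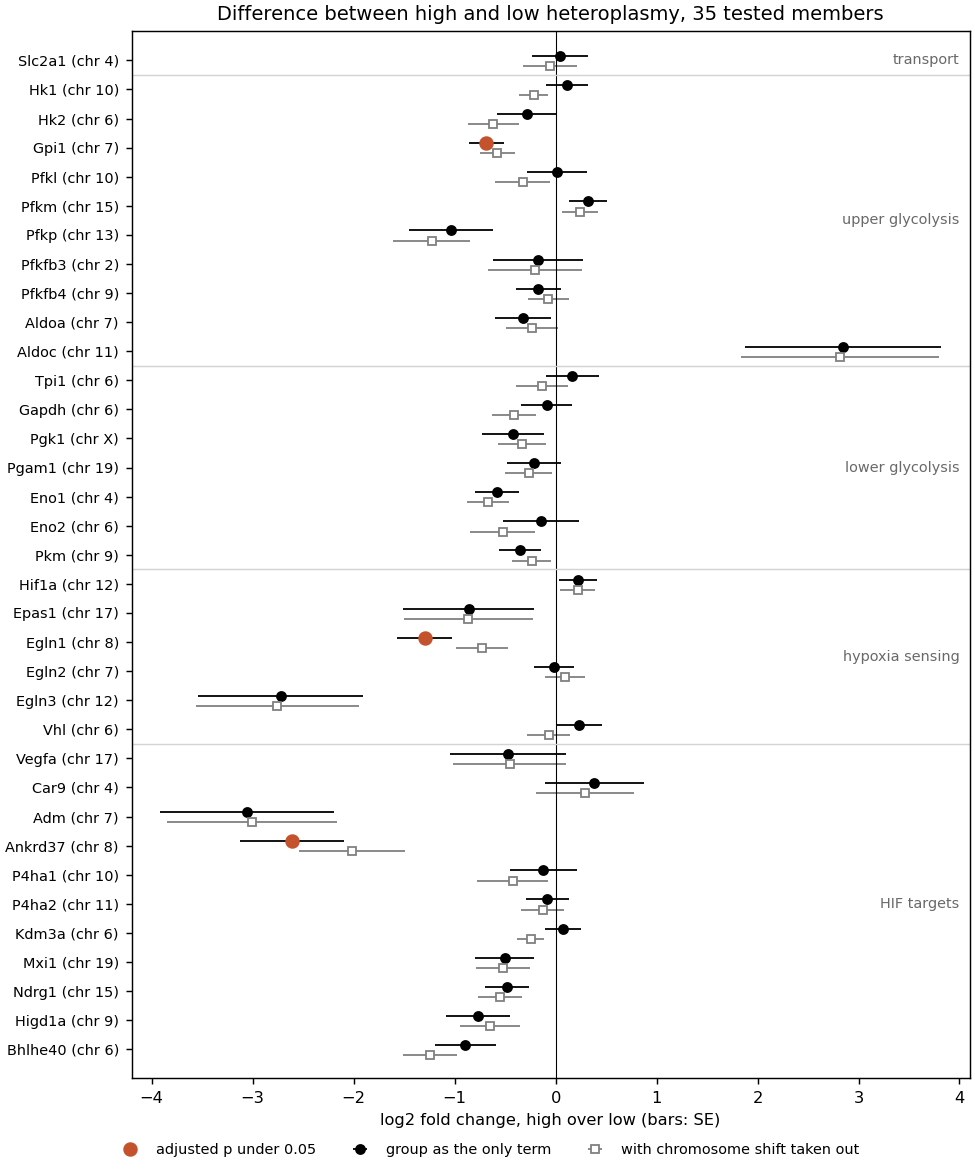
Log2 fold change of each of the 35 tested members, high over low (x axis), with bars for the SE, ordered by role from glucose transport at the top to hypoxia targets at the bottom. Filled points are from the model with the group as its only term, orange where the adjusted p was under 0.05 (Gpi1, Egln1, Ankrd37), and open squares are from the model with the chromosome shift taken out. Most points lie left of 0, and the widest bars belong to Aldoc, Egln3 and Adm.

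Of the glucose transporters, 1 was well expressed. Slc2a1, the basal glucose transporter, was at 184.2, 126.8, 280.9, 132.8 and 155.0 CPM in high 1 to high 5 and at 221.4, 129.5, 226.0, 179.7 and 96.1 CPM in low 1 to low 5. The groups overlapped, although high 3 lay above all low libraries and low 5 below all high ones, and the log2 fold change was 0.05 (SE 0.28, adjusted p = 0.953). Slc2a3, a high-affinity transporter, lay between 0.0795 and 0.815 CPM in all libraries. Per kilobase of exon, Slc2a1 stood at 50.2 ± 17.9 CPM in the high against 48.6 ± 16.3 CPM in the low group (SD, n = 5 each), and Slc2a3 at 0.0304 ± 0.0148 and 0.0648 ± 0.0334.

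In the upper part of glycolysis, which splits glucose into triose phosphates, 1 of 10 tested members fell and 0 rose. The median log2 fold change was -0.17. Before adjustment 1 was higher and 2 were lower at p under 0.05, beside 10.6% and 11.0% of all genes. DESeq2 called 1 higher and 1 lower, beside 5.28% and 6.09% of all genes. With limma-voom the counts were 0 and 1, beside 1.8% and 3.49%. Gpi1 (ENSMUSG00000036427, chromosome 7, 34201330 to 34230336 in GRCm38), glucose phosphate isomerase, was at 303.6, 267.3, 301.1, 296.8 and 266.3 CPM in high 1 to high 5. In low 1 to low 5 it was at 630.7, 335.2, 508.6, 446.6 and 387.0 CPM. Every high library lay below every low one, and the high libraries were close together while the low libraries were spread widely. The log2 fold change was -0.69 (SE 0.17, adjusted p = 0.0445), a level 1.61 times as high in the low group. The call was close to the threshold: of 10 fits with 1 library removed, only the one lacking low 2 kept it. Removing high 1, high 2, high 3, high 4 or high 5 gave an adjusted p of 0.0505, 0.0899, 0.0836, 0.0563 and 0.0799. Removing low 1, low 3, low 4 or low 5 gave 0.0881, 0.0964, 0.0817 and 0.0545. It was also lost with upper-quartile scaling (0.0549), without a filter on low counts (0.0668) and with the chromosome shift taken out (log2 fold change -0.58, adjusted p = 0.12).

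Pfkp, the platelet type of phosphofructokinase, was at 15.4, 34.2, 29.7, 89.2 and 53.9 CPM in high 1 to high 5. It was at 92.5, 91.2, 113.2, 111.2 and 47.7 CPM in low 1 to low 5. Low 5 lay below high 4 and high 5, while the other low libraries lay above all high ones. The log2 fold change of -1.03 did not pass (SE 0.41, adjusted p = 0.173, or 0.0418 without high 4). Pfkp shares 748 exonic bases with Pitrm1 on the other strand, and that gene had 1.43 times the counts and a log2 fold change of 0.41 (adjusted p = 0.411). Whether counting used strand is not stated in the sources used here. The other types of this rate-limiting enzyme did not pass either. Pfkm, the muscle type, was at 212.7, 190.7, 298.8, 149.7 and 151.5 CPM in the high and 181.2, 163.0, 159.1, 155.4 and 145.6 CPM in the low libraries. Its log2 fold change was 0.32 (SE 0.19, adjusted p = 0.362), and all 5 low values lay within the range of the high ones but for low 5. Pfkl, the liver type, was at 0.02 (adjusted p = 0.985), with the highest value in high 5 at 598.7 CPM and the lowest in high 4 at 223.4 CPM.

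Aldoc, the brain type of aldolase, had the largest positive difference of the list. It was at 34.9, 1.38, 1.63, 2.58 and 10.6 CPM in high 1 to high 5 and at 1.99, 2.93, 0.985, 0.335 and 0.871 CPM in low 1 to low 5. High 1 and high 5 stood well above the other 8 libraries, and high 2, high 3 and high 4 lay within the low range. The log2 fold change was 2.84 (SE 0.97), which did not pass in edgeR (adjusted p = 0.118) or limma-voom (0.259) but passed in DESeq2 (0.0088). Aldoa, the main aldolase of the cells, was at 1396 ± 425.1 CPM in the high against 1745 ± 635.8 CPM in the low group (SD, n = 5 each), and its log2 fold change was -0.32 (adjusted p = 0.55). The hexokinases Hk1 (0.11, adjusted p = 0.818) and Hk2 (-0.29, 0.636), which trap glucose in the cell, and the regulators Pfkfb3 (-0.17, 0.871) and Pfkfb4 (-0.17, 0.728), which set the level of the phosphofructokinase activator, did not pass.

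**Figure D2:**
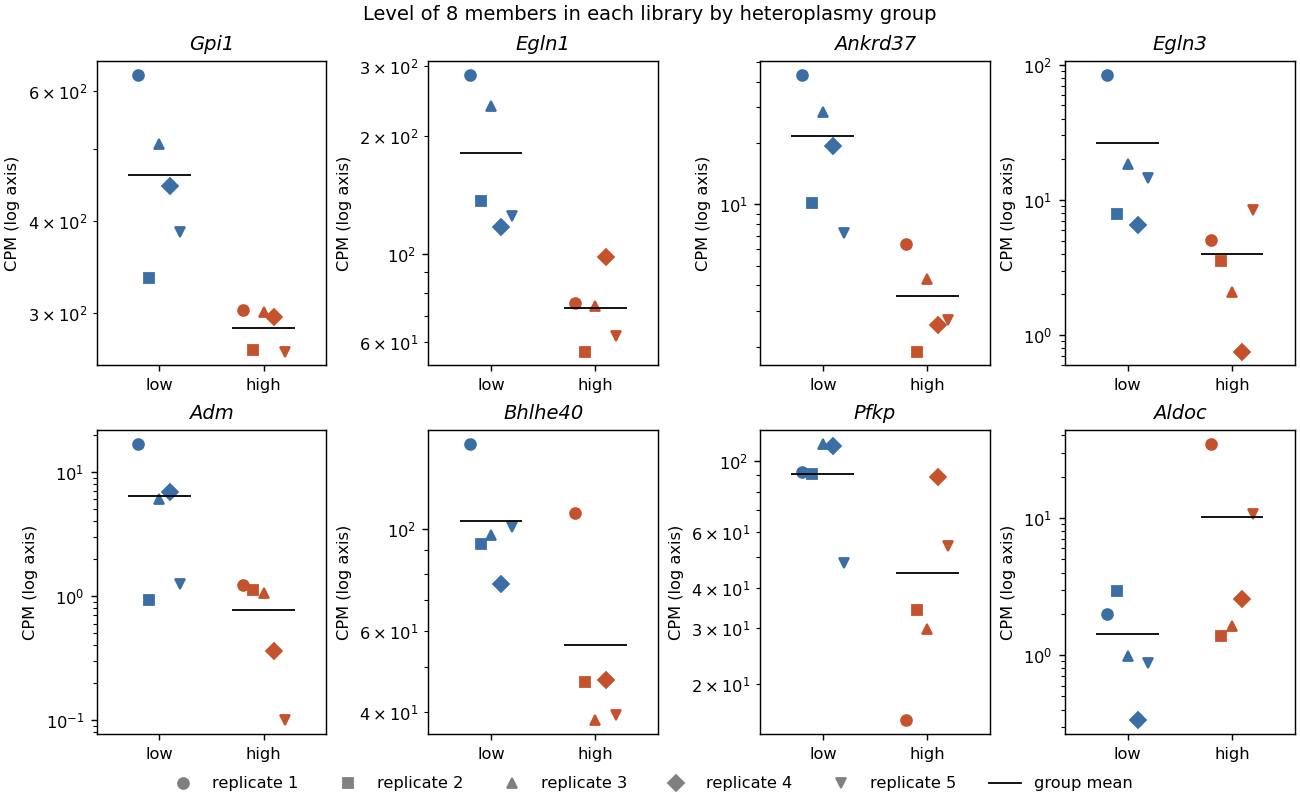
Level of 8 members in each library (CPM, log axis), low libraries in blue and high libraries in orange, with marker shapes for replicates 1 to 5 and a line at the group mean. In Gpi1, Egln1 and Ankrd37 the groups do not overlap, while in the other 5 at least 1 library crosses into the range of the other group, and low 1 is the highest of all in Gpi1, Egln1, Ankrd37, Egln3, Adm and Bhlhe40.

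In the lower part, which yields ATP and NADH, 0 of 7 members were called in edgeR, DESeq2 or limma-voom. Of all genes, 1.99% were called higher and 2.87% lower in edgeR, 5.28% and 6.09% in DESeq2, and 1.8% and 3.49% in limma-voom. At an unadjusted p under 0.05, 1 was lower and 0 higher, beside 11.0% and 10.6% of all genes. The median log2 fold change was -0.22. Eno1, the ubiquitous enolase, was at 516.0, 505.0, 804.6, 888.2 and 844.0 CPM in high 1 to high 5 and at 1154, 722.3, 1324, 1107 and 1006 CPM in low 1 to low 5. Low 2 alone lay within the high range, and the log2 fold change was -0.58 (SE 0.22, adjusted p = 0.146). Pkm, pyruvate kinase of the final step, was at 2033, 2127, 4016, 2817 and 3026 CPM in the high and 3717, 2927, 4455, 3206 and 3639 CPM in the low libraries. High 3 lay above all low libraries but low 3, and the log2 fold change was -0.36 (SE 0.21, adjusted p = 0.357). Tpi1, triose phosphate isomerase, was at 833.1, 813.3, 1173, 489.2 and 1193 CPM in the high and 950.8, 662.2, 1136, 689.6 and 579.8 CPM in the low libraries. It was the only one of these 7 with a positive log2 fold change, 0.16 (SE 0.26, adjusted p = 0.779), and turned to -0.13 with the chromosome shift taken out. The remaining 4 were Gapdh (-0.09, adjusted p = 0.882), Pgk1 (-0.42, 0.466), Pgam1 (-0.22, 0.708) and Eno2, the neuronal enolase (-0.14, 0.875). Tpi1, Gapdh and Eno2 lie on chromosome 6, whose genes were higher in the high group by 0.30 on the log2 scale. Gapdh has 73 near-identical transcripts of other genes (at least 95% identity over 500 bases), and those in the count table held 1.51% of its counts in sum, so reads that match both may be counted elsewhere or dropped.

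Of 6 tested oxygen-sensing genes 1 fell, the hydroxylase gene Egln1, and 0 rose, and the median log2 fold change was -0.44. At an unadjusted p under 0.05, 2 were lower and 0 higher, beside 11.0% and 10.6% of all genes. DESeq2 called 2 lower and limma-voom 1, beside 6.09% and 3.49% of all genes, and both called 0 higher. Egln1 (ENSMUSG00000031987, chromosome 8, 124908587 to 124949324) was at 75.4, 56.7, 73.8, 98.3 and 62.2 CPM in high 1 to high 5 and at 284.8, 136.2, 237.6, 117.2 and 125.4 CPM in low 1 to low 5. Low 1 and low 3 were far above the rest, and the 3 other low libraries still lay above high 4, the highest of its group. The log2 fold change was -1.30 (SE 0.27, adjusted p = 0.0263), a level 2.46 times as high in the low group. With the chromosome shift taken out it was -0.73 (SE 0.26, adjusted p = 0.179). With 1 library removed in turn, 5 of 10 fits kept the call. Those lacking high 2, high 3 or high 5 had an adjusted p of 0.0551, 0.0585 and 0.0536, and those lacking low 1 or low 3 had 0.0531 and 0.0597.

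Egln3, a hydroxylase that hypoxia itself induces, had the wider spread. It was at 5.08, 3.52, 2.08, 0.756 and 8.45 CPM in high 1 to high 5 and at 84.0, 7.93, 18.6, 6.57 and 14.5 CPM in low 1 to low 5. Low 1 alone was more than 4 times any other library, and high 5 lay above low 2 and low 4. The log2 fold change was -2.72 (SE 0.82), which did not pass in edgeR (adjusted p = 0.083) or limma-voom (0.112) but passed in DESeq2 (0.00217). It was -1.58 in the fit without low 1. Egln2, the third of the family and not known as a hypoxia target, did not pass and was at 69.8 ± 17.1 CPM in the high and 70.4 ± 11.1 CPM in the low libraries (SD, n = 5 each; log2 fold change -0.01, adjusted p = 0.982).

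The factors and their ligase did not pass. Hif1a was at 109.4, 148.7, 117.3, 80.2 and 122.4 CPM in the high and 121.9, 101.2, 110.8, 75.9 and 85.6 CPM in the low libraries, and its log2 fold change was 0.22 (SE 0.18, adjusted p = 0.531). Its activity is set mainly by protein stability, which RNA does not show. Epas1, the second alpha subunit, varied far more, from 2.15 CPM in high 4 to 32.5 CPM in low 1, and its log2 fold change of -0.86 came with an SE of 0.65 (adjusted p = 0.485). Vhl was at 32.6, 29.1, 31.97, 21.8 and 36.5 CPM in the high and 27.0, 29.8, 35.1, 21.5 and 15.6 CPM in the low libraries. The groups overlapped, and the log2 fold change of 0.24 (SE 0.22, adjusted p = 0.595) turned to -0.07 with the chromosome shift taken out.

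Among the 11 hypoxia-induced targets, 1 fell and 0 rose, and the median log2 fold change was -0.49. At an unadjusted p under 0.05, 5 were lower and 0 higher, beside 11.0% and 10.6% of all genes. DESeq2 called 3 lower and limma-voom 1, beside 6.09% and 3.49% of all genes, and both called 0 higher. Ankrd37 (ENSMUSG00000050914, chromosome 8, 45996902 to 46005707) was at 6.35, 1.89, 4.28, 2.54 and 2.69 CPM in high 1 to high 5 and at 43.2, 10.2, 28.4, 19.2 and 7.24 CPM in low 1 to low 5. The low libraries themselves ranged widely, and low 5 lay only just above high 1. The log2 fold change was -2.61 (SE 0.51, adjusted p = 0.0224), a level 6.1 times as high in the low group. It stayed at -2.02 with the chromosome shift taken out but no longer passed (SE 0.52, adjusted p = 0.0846). With 1 library removed in turn, 9 of 10 fits kept the call, and the one lacking high 3 had an adjusted p of 0.0501. The gene shares 57 exonic bases with Ufsp2 on the other strand, and that gene had 6.25 times its counts and also fell (-0.84, adjusted p = 0.0176). It shares 349 with Lrp2bp, which had 3.11% of its counts.

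Adm, the gene for the vasodilator peptide adrenomedullin, had the largest negative difference of the list. It was at 1.22, 1.12, 1.06, 0.358 and 0.0998 CPM in high 1 to high 5 and at 16.9, 0.924, 6.1, 6.86 and 1.25 CPM in low 1 to low 5. Low 1, low 3 and low 4 were higher than all high libraries by several fold, while low 2 lay within their range and low 5 just above it. The log2 fold change was -3.06 (SE 0.86), which did not pass in edgeR (adjusted p = 0.0672) or limma-voom (0.114) but passed in DESeq2 (0.00238). Counts were low, from 3 to 297 per library. Car9, a carbonic anhydrase used widely as a hypoxia marker, was near the limit of detection, with 7 to 44 counts. It was at 1.12, 1.89, 1.67, 0.597 and 0.466 CPM in the high and 0.627, 1.25, 1.45, 0.669 and 0.381 CPM in the low libraries (log2 fold change 0.38, SE 0.49, adjusted p = 0.717). Its antisense neighbour Gm12454 had 1.71 times its counts, and without a known strand setting the 2 cannot be told apart.

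Kdm3a, a histone demethylase, was at 63.6, 61.99, 41.7, 37.0 and 46.5 CPM in the high and 54.4, 46.9, 46.8, 51.5 and 38.7 CPM in the low libraries. These overlapped, and the log2 fold change of 0.07 (SE 0.18, adjusted p = 0.864) turned to -0.25 with the chromosome shift taken out. Vegfa, the endothelial growth factor, ranged from 13.5 CPM in low 5 to 152.3 CPM in low 3, a span that covered all high libraries (log2 fold change -0.47, SE 0.57, adjusted p = 0.698). Bhlhe40, a transcriptional repressor, was at 55.9 ± 29.4 CPM in the high against 103.9 ± 29.2 CPM in the low group (SD, n = 5 each; log2 fold change -0.90, SE 0.30, adjusted p = 0.113, or 0.0113 without high 1). With the chromosome shift taken out its log2 fold change was -1.24 (SE 0.27, adjusted p = 0.0519). The others were Higd1a, a small inner-membrane protein of mitochondria (-0.77, adjusted p = 0.179), the Max-binding repressor Mxi1 (-0.51, 0.344), the stress gene Ndrg1 (-0.49, 0.223) and the collagen prolyl hydroxylases P4ha1 (-0.12, 0.88) and P4ha2 (-0.08, 0.873).

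Clones of the same group differed from each other. Low 1 had the highest level of all 10 libraries for 12 of the 35 tested members (34.3%, against 8.45% of all tested genes), and low 3 for 8 (22.9%, against 8.02%). Neither was the lowest for any member, where low 1 was the lowest for 7.03% and low 3 for 9.58% of all tested genes. Low 2 and low 5, of the same group, were the highest for 0 members, beside 6.06% and 8.58% of all tested genes. High 4 was the lowest for 9 members (25.7%, against 8.83% of all tested genes).

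The same clones stood out in enzymes and targets. As the median over a set of genes of each gene's distance from its own median across libraries (log2 of CPM plus 0.5), the 11 targets were at 0.69 in low 1 and 0.65 in low 3, and at -0.11, -0.10 and -0.07 in low 2, low 4 and low 5. In high 1 to high 5 they were at 0.10, -0.04, -0.10, -0.52 and -0.37. The 18 tested transport and glycolysis genes were at 0.41 in low 1 and 0.45 in low 3, at -0.10, 0.08 and -0.14 in the other low libraries, and between -0.34 in high 2 and 0.08 in high 1. For the upper glycolysis genes alone, high 1 was the highest at 0.33, above low 1 at 0.29 and low 3 at 0.20. The lower glycolysis genes were at 0.41 in low 1 and 0.52 in low 3, and at -0.09 in high 1. The oxygen-sensing genes were at 0.74 in low 1, but at 0.13 in both low 2 and low 3. Over all tested genes the medians ran from -0.01 to 0.01. These values describe the libraries and were not tested. For the targets, low 2, low 4 and low 5 fell within the range of the high libraries, and for the enzymes low 2 and low 5 did, with low 4 level with high 1.

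**Figure D3:**
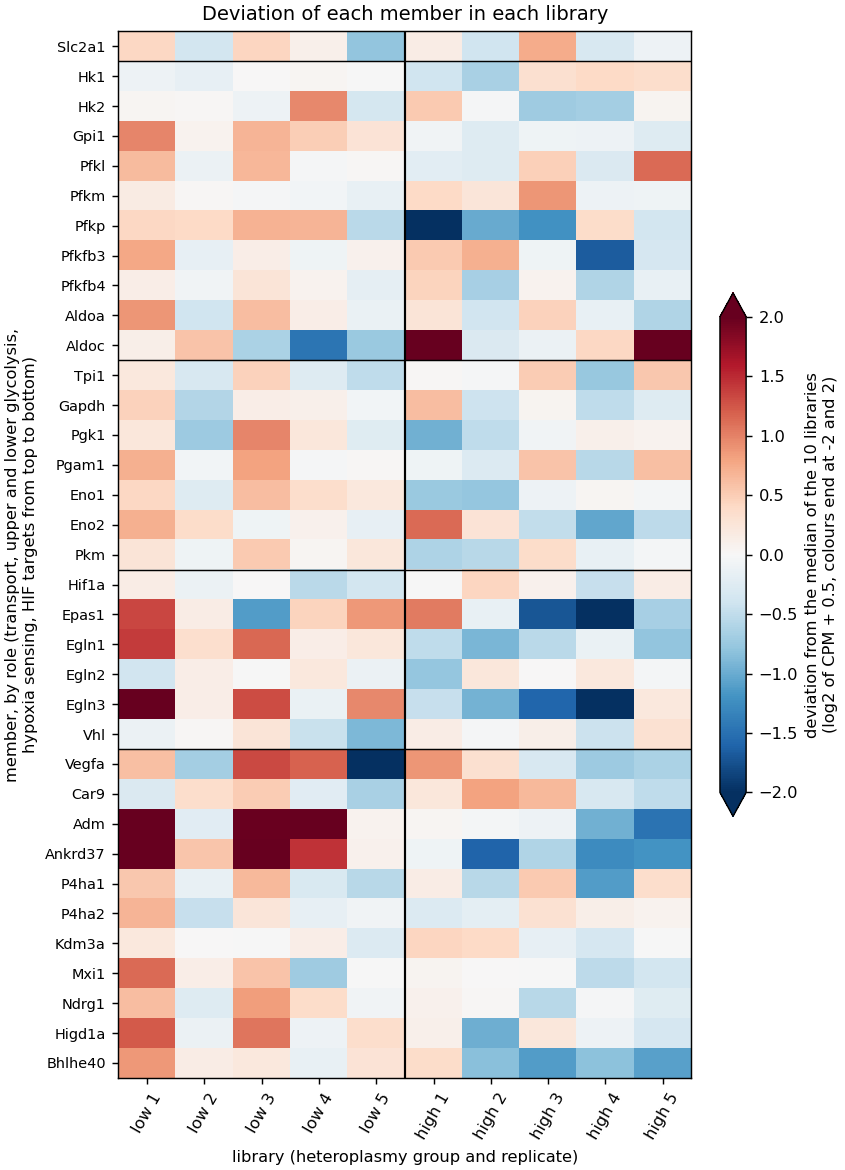
Deviation of each tested member (rows, by role) from its median over the 10 libraries (columns, low then high), on the scale of log2 of CPM plus 0.5, red for higher and blue for lower. The columns of low 1 and low 3 are red in most rows, high 4 is mostly blue, and the deepest colours are in Egln3, Adm, Ankrd37, Aldoc and Epas1.

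Several steps are encoded by more than 1 gene, and the balance between such genes was compared within libraries. Library scaling cancels out there except for the 0.5 CPM added to each level, which matters for genes at low levels such as Aldoc. Of 12 pairs, 11 had both genes above a mean of 0.5 CPM in at least 1 group. None passed (two-sided exact permutation test over the libraries, smallest possible p = 0.00794, Benjamini-Hochberg over the 11 pairs). After adjustment over 11 pairs, a lone pair at that smallest p could not pass. The absence of calls thus does not show an unchanged balance. Just 1 pair had an unadjusted p under 0.05. That pair was Egln1 to Egln2, whose log2 ratio was 0.86, -0.56, 0.05, 0.25 and -0.16 in high 1 to high 5 and 2.38, 0.79, 1.73, 0.50 and 0.93 in low 1 to low 5. High 1 crossed the lower low libraries, and the difference of -1.18 had an exact p of 0.0238 and an adjusted p of 0.196. Egln1 lies on chromosome 8, whose shift was -0.57, and Egln2 on chromosome 7, whose shift was -0.10. The ratios given here are not corrected for such shifts. The ratio of Pfkp to Pfkm differed by -1.47 (-2.35 ± 1.25 in the high against -0.87 ± 0.46 in the low group, SD, n = 5 each; exact p = 0.0556, adjusted p = 0.196), and that of Aldoa to Aldoc by -1.98 (7.95 ± 1.85 and 9.92 ± 0.98; exact p = 0.0714, adjusted p = 0.196). Hif1a to Epas1 differed by 1.31 (exact p = 0.127, adjusted p = 0.279), while Hk1 to Hk2, Eno1 to Eno2 and P4ha1 to P4ha2 differed by 0.33, -0.28 and -0.12, each with an exact p of at least 0.492. The 4 pairs left were Pfkl to Pfkp (1.14, exact p = 0.0635), Egln1 to Egln3 (1.00, 0.262), Pfkl to Pfkm (-0.34, 0.389) and Pfkfb3 to Pfkfb4 (-0.11, 0.818), and Slc2a1 to Slc2a3 was not tested.

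**Figure D4:**
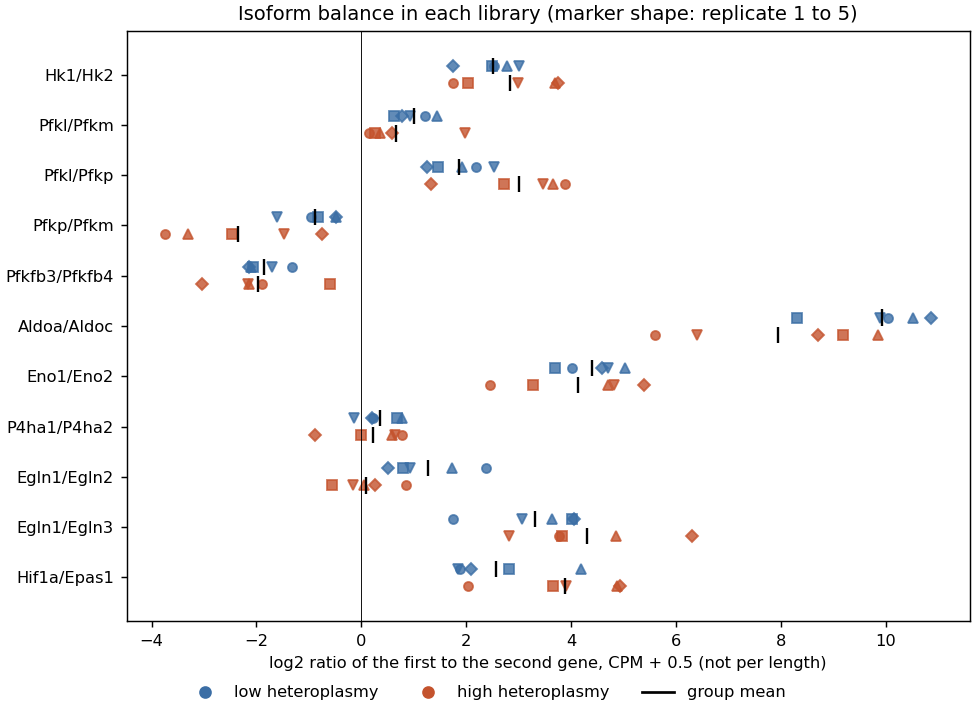
Log2 ratio of the first to the second gene of 11 pairs (x axis, CPM plus 0.5, not per length) in each library, low in blue and high in orange, with marker shapes for replicates 1 to 5 and a short line at each group mean. The groups overlap in all 11 pairs, and the high libraries are spread more widely in most, from 5.59 to 9.85 for Aldoa to Aldoc.

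Per length, 1 isoform held the higher level at most steps. The highest levels per kilobase of exon were those of Pkm (560.7 ± 160.3 CPM per kilobase in the high against 717.6 ± 116.4 in the low group, SD, n = 5 each), Aldoa (479.5 ± 146.0 and 599.5 ± 218.4), Gapdh (389.6 ± 134.9 and 414.7 ± 102.3) and Tpi1 (327.1 ± 106.1 and 292.0 ± 84.3). The intervals of mean ± SD of neighbours in this order overlapped in both groups. Hk1 stood at 38.4 ± 11.9 and 35.6 ± 2.08 per kilobase, and Hk2 at 7.68 ± 2.83 and 9.36 ± 3.84. Eno1 stood at 132.3 ± 34.6 and 197.5 ± 41.3, and Eno2 at 9.63 ± 6.31 and 10.6 ± 2.84. Aldoc was at 3.13 ± 4.39 and 0.436 ± 0.317, far under Aldoa in both groups. The 3 phosphofructokinase genes were shared between Pfkm (60.1 ± 18.3 and 48.2 ± 3.91) and Pfkl (49.9 ± 24.3 and 49.4 ± 13.2), with Pfkp lower (3.32 ± 2.13 and 6.8 ± 1.97). With the longest transcript as the length, Pfkl came to 89.3 and Pfkm to 69.7 in the high group, so the order of those 2 depends on the length used. The order below Pkm and Aldoa depends on it too. With the longest transcript, Tpi1 came to 560.3 and Gapdh to 489.5 in the high group. In the low group Eno1 then came to 524.2, Gapdh to 521.1 and Tpi1 to 500.1. Hif1a (19.6 ± 4.19 and 16.8 ± 3.15) lay above Epas1 (1.84 ± 1.75 and 3.33 ± 1.81). Egln1 and Egln2 were close in the high group (20.4 ± 4.46 and 24.9 ± 6.11), whereas Egln1 was at 50.2 ± 21.2 and Egln2 at 25.1 ± 3.97 in the low group.

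**Figure D5:**
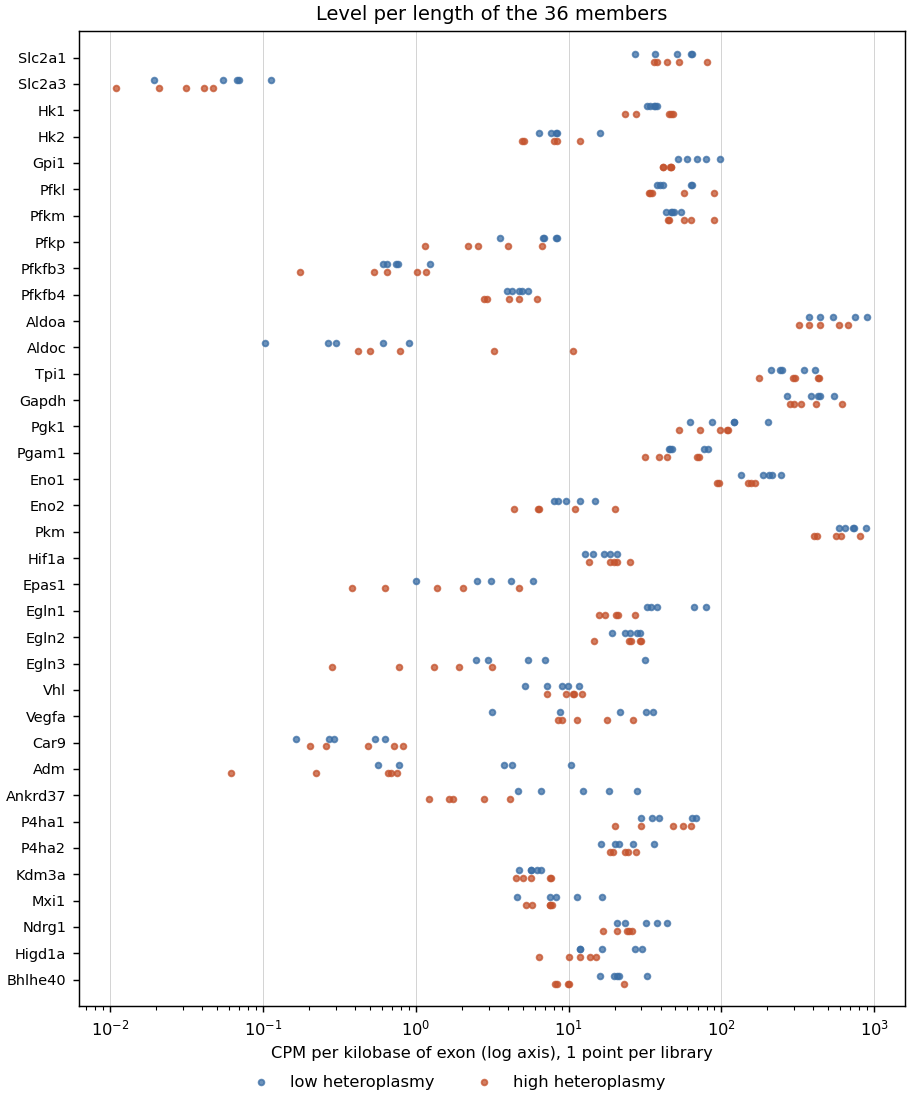
Level of each of the 36 members per kilobase of exon (CPM, log axis), 1 point per library, low in blue and high in orange. Pkm, Aldoa, Gapdh and Tpi1 are at the right end, Slc2a3 is at the left end, and the members of 1 isoform family often differ by more than the 2 groups do.

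A second list of 69 genes of the same pathways, of which 67 were in the count table and 57 were tested, had 2 rises and 3 falls. Of 37 further hypoxia-induced genes 3 fell (8.11%) and 1 rose, beside 2.87% and 1.99% of all genes, and the median log2 fold change was -0.59. DESeq2 called 8 of them lower and 2 higher, beside 6.09% and 5.28% of all genes. With limma-voom 4 were lower and 1 higher, beside 3.49% and 1.8%. The falls were Loxl2, a collagen cross-linking oxidase (log2 fold change -2.0, SE 0.37, adjusted p = 0.0174), Bnip3l, a mitophagy receptor (-0.71, SE 0.17, adjusted p = 0.0383), and Wsb1, a ubiquitin ligase adaptor (-0.62, SE 0.14, adjusted p = 0.0314). In all 3 the high and low values did not overlap, and the same held for Hmox1, the haem-degrading oxygenase (-0.84, SE 0.25, adjusted p = 0.08), on chromosome 8. The rise was Cited2, which competes with the hypoxia-inducible factors for their coactivators (1.29, SE 0.32, adjusted p = 0.0421). It was at 210.5, 421.9, 294.5, 278.1 and 177.8 CPM in high 1 to high 5 and at 68.4, 108.9, 123.1, 194.7 and 70.9 CPM in low 1 to low 5, and low 4 alone crossed into the high range. Among 12 oxygen-sensing genes, Ep300, one of those coactivators, rose (0.61, SE 0.15, adjusted p = 0.0455) with all high values above all low ones, as for 3.0% of all genes, and 0 fell. Before adjustment at p under 0.05, in DESeq2 and in limma-voom, likewise 0 were lower, beside 11.0%, 6.09% and 3.49% of all genes. Of 8 further glycolysis isoforms none was called in edgeR. Before adjustment 1 was higher and 1 lower at p under 0.05, beside 10.6% and 11.0% of all genes. DESeq2 called 1 higher and 0 lower, beside 5.28% and 6.09%, and limma-voom 0 and 0, beside 1.8% and 3.49%.

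Without low 2 and low 3 all 5 calls were lost, with an adjusted p of 0.077 for Loxl2, 0.124 for Bnip3l, 0.145 for Wsb1, 0.137 for Ep300 and 0.177 for Cited2. With 1 library left out in turn, that of Loxl2 held in all 10 fits. Wsb1 was lost without high 2, high 3 or any of low 1 to low 4 (adjusted p 0.0584 to 0.0707), and Cited2 without high 2, high 3, high 4 or any low library but low 4 (0.0558 to 0.0917). Ep300 was lost in all such fits but those without high 1 and high 4 (0.0578 to 0.106), and Bnip3l in all but the one without high 1 (0.0523 to 0.0848). Bnip3l and Loxl2 lie on chromosome 14, whose shift was -0.40, and Cited2 on chromosome 10, whose shift was 0.28. Wsb1 was the one still called with the chromosome shift taken out (adjusted p = 0.0256, against 0.0807 for Loxl2, 0.0928 for Ep300, 0.179 for Cited2 and 0.45 for Bnip3l), but it was lost without the filter on low counts (0.0608), as were Ep300 (0.0715) and Bnip3l (0.052, and 0.0506 with upper-quartile scaling). Of the 37 further hypoxia-induced genes, low 1 was the highest library for 12, low 3 for 8, high 2 for 7 and low 4 for 6, beside 8.45%, 8.02%, 10.1% and 10.3% of all tested genes. Low 2 and low 5 were the highest for 0 of the 37.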

How the data were processed

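Polyadenylated RNA of 10 fibroblast populations, 5 with high and 5 with low heteroplasmy as the titles of the samples state, was read by a stranded kit as 50 bp pairs. The deposited table holds raw read counts per Ensembl gene, made by the authors with 1 column per library, and their sample sheet lists 2 runs for each. Per the submitters' processing notes, STAR 2.7.8a, R 4.2.1, DESeq2 1.36.0 and the build GRCm38 were used, in roles that are not stated. The tool that counted reads, and whether it used strand, is not stated in the sources used here.

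Ensembl identifiers were matched to symbols in GENCODE M21 (GRCm38). Counts were tested with edgeR 4.0.16 in R 4.3.3 (default filter by group, TMM, robust quasi-likelihood F-test, group as the only term, Benjamini-Hochberg over all 12964 genes tested, two-sided, threshold 0.05). Fold changes are high over low, and SE was taken as the log2 fold change over the square root of F. CPM per kilobase uses the union of exons. The shift of a chromosome in a library is the median deviation over that chromosome's better expressed genes. Their number ran from 225 on chromosome 18 to 824 on chromosome 11, with 548 on chromosome 8. Isoform ratios used log2 of CPM plus 0.5. Near-identical transcripts were sought with blastn 2.17.0, and promoter windows came from RefSeq on GRCm38.p6. Plots used Python 3.11.15 and matplotlib 3.10.9.

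Alternatives were RLE and upper-quartile scaling, TMM without mtDNA genes, a block for the replicate number, dropping the filter or asking for 1 CPM in 5 libraries, each library left out, leaving out the 2 libraries rich in Gm42418, a chromosome offset, DESeq2 1.42.0, limma-voom (limma 3.58.1), a threshold of 0.1, 0.1 CPM added in the ratios, and the longest transcript as length. On simulated counts with 12784 genes in the fit, 29.0% of 2-fold and 82.0% of 4-fold changes were called, and 0.0157% of unchanged genes. Each gene was drawn independently and without shifts of whole chromosomes, so these shares may not hold for the real libraries. The members and lists were chosen with earlier results of these data known. Per-library values were given for the called members, those whose groups do not overlap, the 2 with the smallest p in each direction of each role, and the 4 with the widest spread. Genes of the second list were named when called or without overlap. The labels call the populations biological replicates, and p-values measure the spread between them.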

Additional observations from a re-analysis of the deposited data

Results flagged for a closer look

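Over the 35 tested members in both groups, 70 sets of 5 libraries were searched for a library far from the 4 others (gap over 0.71 of the group's range on the scale of log2 of CPM plus 0.5), and 3 were found, where chance gives about 3.5. Pfkp was at 47.7 CPM in low 5, against 91.2 to 113.2 CPM in the other low libraries. Egln2 was at 41.4 CPM in high 1, against 69.6 to 83.9 CPM in the other high libraries. Bhlhe40 was at 108.0 CPM in high 1, against 38.4 to 47.1 CPM in the other high libraries.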

How the results depend on the processing

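Of the 35 tested members, the number lower in the high libraries (3) became 0 with the chromosome shift taken out, 0 without low 2 and low 3, 6 with DESeq2 and 5 at an adjusted p under 0.1, and ranged from 0 to 3 when 1 library was left out. The number higher (0) became 1 with DESeq2. Over all genes, calls in either direction ran from 232 to 821 when 1 library was left out, against 630 in the main fit. The cause was not tested, and fits that leave out libraries have fewer samples. The other settings gave 2 to 4 calls, and the count of isoform ratios passing stayed 0 in 14 alternatives. With the replicate number as a block no ratio could pass, since the smallest possible p of that exact sign-flip test was 0.0625. Without low 2 and low 3 the smallest possible exact p was also larger than with all libraries. The unchanged count of 0 therefore does not show that the balance held.

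Log2 fold changes near 0 changed sign. With the chromosome shift taken out these were -0.057 for Slc2a1, -0.22 for Hk1, -0.33 for Pfkl, -0.13 for Tpi1, 0.094 for Egln2, -0.067 for Vhl and -0.25 for Kdm3a. Without low 2 and low 3 they were 0.065 for Egln2 and 0.041 for P4ha1, and the ratio difference of P4ha1 to P4ha2 was 0.13. Egln2 was at 0.0093 with upper-quartile scaling and at 0.0049 without a filter, and Pfkl at -0.067 in limma-voom. Over the fits that left out 1 library, the range was -0.19 to 0.17 for Slc2a1, -0.31 to 0.13 for Pfkl, -0.43 to 0.075 for Pfkfb3, -0.31 to 0.031 for Gapdh, -0.60 to 0.041 for Eno2, -0.095 to 0.13 for Egln2, -0.29 to 0.059 for P4ha1, -0.18 to 0.11 for P4ha2 and -0.024 to 0.17 for Kdm3a. The ratio differences ranged from -0.45 to 0.16 for Pfkfb3 to Pfkfb4, -0.59 to 0.14 for Eno1 to Eno2 and -0.26 to 0.16 for P4ha1 to P4ha2.

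The replicate numbers of the 2 groups were checked for pairing. Same-numbered libraries had correlations of 0.50, 0.03, 0.01, 0.17 and 0.25, and replicates 1 and 5 matched their own number best in both directions. Since 2 of the 5 correlations were below 0.1 and the labels name nothing shared by a number, the libraries were not treated as paired. With the replicate number as a block, 4 members were lower and 0 higher, 577 genes were called in all against 630 without it, Bhlhe40 was at -0.98 (adjusted p = 0.0299) and Pfkl at -0.0703. In the second list the block ended the calls of Ep300 (adjusted p = 0.0596) and Wsb1 (0.0517). Depth limited Slc2a3, Adm, Car9 and Aldoc, whose lowest libraries had 2, 3, 7 and 8 counts.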
